A study of Mus musculus with 4 samples.

Results

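The genes described here are the chromatin methylation and remodelling enzymes of mouse type 1 innate lymphoid cells (ILC1s): the enzymes and complex subunits that write or erase methyl marks on histones and DNA, remove acetyl groups from histones or shift nucleosomes. They were taken by symbol as the protein-coding genes of the Kmt2, Kmt5, Kdm, Setd, Arid, Chd, Hdac, Dnmt and Tet families. The rule found 75 genes among the 40481 of the deposited table. These were 8 histone H3 lysine 4 (H3K4) methyltransferases, 10 other SET-domain methyltransferases, 18 lysine demethylases, 10 ARID proteins, 10 CHD remodellers, 11 histone deacetylases and 8 DNA methylation enzymes. RNA was sequenced from CD49a+ ILC1s of mice whose alleles of Inpp4b, a phosphoinositide phosphatase gene, were floxed. The 2 control libraries, numbered 1 and 2, had the genotype Inpp4b flox/flox, and the 2 libraries labelled knockout, numbered 3 and 4, had Ncr1-iCre Inpp4b flox/flox. Cre under Ncr1 control acts in cells that express the receptor NKp46, natural killer cells included, and the presence of iCre cannot be told apart from the loss of Inpp4b in these groups. The labels used here do not say whether a library came from 1 animal or several, and they name a tissue, liver, for control library 1 alone.

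Chromatin enzymes set which genes a cell can read. Methyltransferases of the KMT2 and SETD families place methyl groups on histone lysines and KDM demethylases take them off, while DNMT enzymes methylate cytosine in DNA and TET enzymes oxidise that mark on the way to its removal. CHD proteins and the SWI/SNF complexes that contain ARID subunits spend ATP to move nucleosomes, and HDACs remove acetyl groups.

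The libraries held 42380840 to 54878210 counts. Inpp4b was at 78.7 and 106.5 beside 142.5 and 86.0 CPM (CPM is a library's counts scaled to its total and TMM factor, with controls before the libraries labelled knockout). The whole-gene count was thus not lower in the libraries labelled knockout, it cannot show the loss of single exons, and each direction below is that of the libraries so labelled. Itga1, which encodes CD49a, was at 217.6 and 207.9 beside 178.9 and 206.0 CPM. Ncr1, the gene whose control elements drive the Cre, was at 1672.0 and 1772.0 beside 1202.0 and 1077.0 CPM (log2 fold change -0.60, SE 0.14, adjusted p = 0.280 in edgeR and 0.0297 in DESeq2). Over 12 ILC1 markers, Itga1 and Ncr1 among them, the sum was 13580 and 14820 CPM (controls) and 15880 and 18140 CPM (labelled knockout). The log2 fold change was below 0 in 6 of these 12 and above 0 in 6. At an unadjusted p under 0.05 in edgeR, 2 were higher, Gzma (0.80) and Ifng (0.86), and 1 lower, Ncr1, with 0 called after adjustment. Summed over 17 myeloid markers the level was 1150 and 1306 CPM (controls) and 3018 and 3520 CPM (labelled knockout); of the 14 tested, 11 were higher at an unadjusted p under 0.05 and 5 of them rose at an adjusted p under 0.05 in edgeR. Summed over 14 T cell markers it was 2584 and 2579 CPM (controls) and 3081 and 4161 CPM (labelled knockout). Cd3g alone was at 1469 and 1255 CPM in the controls. Of the 12 tested, 6 were higher and 0 lower unadjusted, and 4 had a log2 fold change below 0. Only Trac rose at an adjusted p under 0.05 in edgeR, at 7.31 and 5.67 beside 85.1 and 200.9 CPM. Over 9 natural killer cell markers the sum was 469.8 and 542.1 CPM (controls) and 828.4 and 1538 CPM (labelled knockout). Prf1 alone was at 398.2 and 465.5 CPM in the controls. Of these 9, 4 were higher and 0 lower unadjusted, and Itga2 was the 1 below 0 (log2 fold change -0.34). Klra7 alone of the 9 rose at an adjusted p under 0.05 in edgeR, at 27.8 and 37.5 beside 250.8 and 520.6 CPM. Klra1 was at 3.74 and 5.97 beside 19.0 and 327.5 CPM, so library 4 stood far above library 3. Over 12 hepatocyte markers the sum was 198.3 and 127.3 CPM (controls) and 192.5 and 211.2 CPM (labelled knockout). Of all these markers Mpo, a neutrophil granule gene, was at 0 in both controls, and no myeloid, T cell, natural killer cell or hepatocyte marker was at 0 in all libraries. The part of other cells in the values below was not tested, and in bulk samples fewer cells of a type cannot be told apart from less RNA per cell.

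Transcript levels of these enzymes lay lower more often than higher in the libraries labelled knockout, but edgeR's quasi-likelihood test called no single member. Of 75 members, 71 had enough counts to be tested, and 55 of them (77.5%) had a log2 fold change below 0, where 51.3% of all 14863 tested genes did. The median log2 fold change was -0.29 in members and -0.01 over all tested genes, and members ran from -1.46 for Dnmt3b to 0.52 for Setd6. In 32 members (45.1%) both libraries labelled knockout lay below both controls, where 20.8% of all tested genes had that order. In 4 members (5.63%: Arid5a, Hdac1, Kdm3a and Setd6) both lay above, where 19.5% of all did. Such an order can rest on a small gap. Chd4 counts as lower with 84.56 CPM in control library 2 and 84.53 CPM in library 4, and Kdm3a as higher with a log2 fold change of 0.08.

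edgeR called 0 members at an adjusted p under 0.05, where it called 0.155% of all tested genes, and the 95% interval of 60 of the 71 spanned 0. At an unadjusted p under 0.05 in edgeR, 9 members were lower (12.7%, beside 5.17% of all tested genes) and 2 were higher (2.82%, beside 4.48%). limma-voom also called 0 members, where it called 18 genes higher and 2 lower over all tested genes. Unadjusted, 10 members were lower and 2 higher in that fit, for which the share over all genes was not counted. DESeq2 called 2 lower, Kmt2d and Dnmt3b, and 0 higher. Of all its 15158 tested genes it called 203 (1.34%) lower and 278 higher. Without control library 2 the members' median was -0.19, beside -0.29 with all libraries, so its size depends in part on that library. The count of 9 cannot be set against that fit, which leaves 1 control and fewer degrees of freedom. Without control library 1 the median was -0.39.

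**Figure D1:**
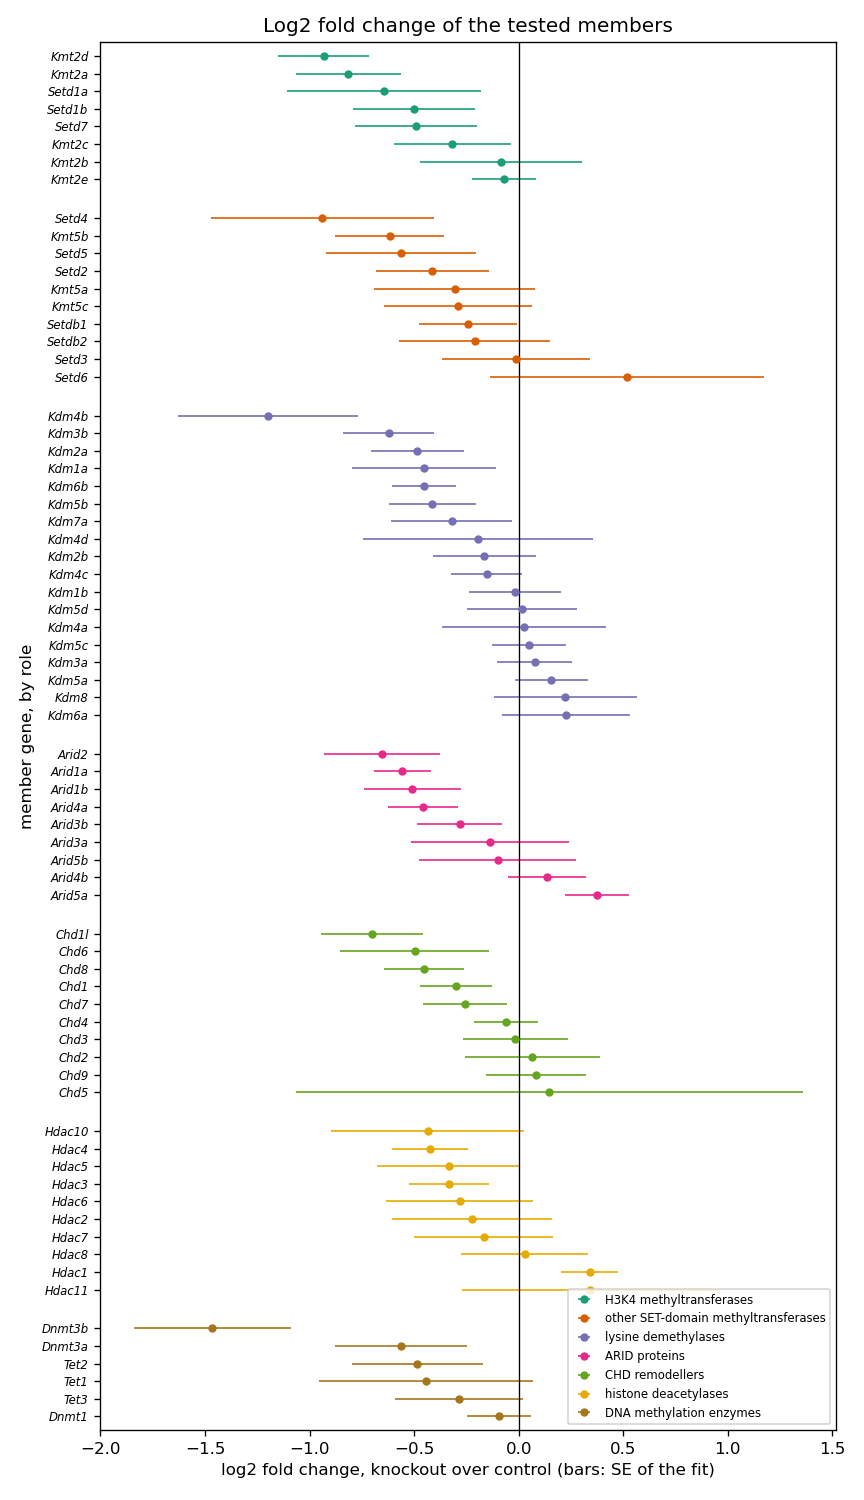
Log2 fold change of each of the 71 tested members (libraries labelled knockout over control), grouped by role, with bars for the standard error of the fit. Of the points, 55 lie left of the line at 0, and all H3K4 methyltransferases and all tested DNA methylation enzymes lie on that side.

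H3K4 methyltransferases, which mark promoters and enhancers, were all below 0, 8 of 8, with a median log2 fold change of -0.495, the lowest median among the 7 roles. Over all tested genes, those of long annotated exonic length had a lower median log2 fold change. With a trend on length removed from each library, 6 of the 8 were below 0 and their median was -0.31. Kmt2d encodes MLL4, which monomethylates H3K4 at enhancers (mm10 chromosome 15, 98831669 to 98871204, minus strand). It was at 356.4 and 539.6 CPM (controls) and at 220.8 and 248.4 CPM (labelled knockout), from 20663 and 25493 against 9491 and 12851 counts. The groups did not overlap, and control library 2 stood highest. The means were 448.0 ± 129.6 and 234.6 ± 19.5 CPM (SD, n = 2 each), a log2 fold change of -0.93 (SE 0.22, 95% interval -1.46 to -0.41). The adjusted p was 0.290 in edgeR and 0.0131 in DESeq2. Without control library 2 the log2 fold change was -0.60 (adjusted p = 0.635 in edgeR). Kmt2a encodes MLL1, a promoter H3K4 methyltransferase required by blood stem cells (chromosome 9, 44803355 to 44881296). It was at 49.7 and 75.9 CPM (controls) and at 36.1 and 35.3 CPM (labelled knockout) (log2 fold change -0.81, SE 0.25, adjusted p = 0.392 in edgeR). Again no value overlapped, and control library 2 was the highest. Without it the log2 fold change was -0.48 (adjusted p = 0.872 in edgeR). Kmt2e, a KMT2 relative for which methyltransferase activity is in doubt, was at 261.3 and 296.7 beside 286.8 and 243.8 CPM (log2 fold change -0.07, SE 0.15), and its groups overlapped. Setd1a, the catalytic subunit of a SET1 complex, was at 4.76 and 5.61 beside 3.93 and 2.71 CPM (log2 fold change -0.64, SE 0.46). Its count is uncertain, since 52.3% of its exonic bases are shared with other annotated genes. Of the other members, Kmt2c, Setd1b and Setd7 had log2 fold changes between -0.50 and -0.32, and Kmt2b one of -0.09.

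The other SET-domain methyltransferases held no gene with an unadjusted p under 0.05. In 9 of 10 the log2 fold change was below 0, with a median of -0.30 and values from -0.94 to 0.52. With the length trend removed, 8 of 10 were below 0, with a median of -0.23. Setd2, which trimethylates H3K36 behind elongating RNA polymerase, was at 38.9 and 45.45 CPM (controls) and at 25.1 and 38.25 CPM (labelled knockout) (log2 fold change -0.41, SE 0.27, adjusted p = 0.723 in edgeR). Its groups did not overlap, but library 4 lay close to control library 1. Setdb1, an H3K9 methyltransferase that silences retroelements, was at 27.0 and 31.5 beside 24.6 and 24.8 CPM (log2 fold change -0.24, SE 0.23). Kmt5a, the H4K20 monomethyltransferase, was at 12.7 and 14.7 beside 7.77 and 14.4 CPM (log2 fold change -0.31, SE 0.38). Library 3 alone stood low in Kmt5a, and in Kmt5c, an H4K20 methyltransferase of heterochromatin, the order was the same at 25.6 and 33.9 beside 17.1 and 31.6 CPM (log2 fold change -0.29, SE 0.35). Setd5, at 13.4 and 20.4 beside 13.5 and 9.35 CPM (log2 fold change -0.56, SE 0.36), overlapped between groups.

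Lysine demethylases lay on both sides of 0, with 11 of 18 below, 7 above, a median log2 fold change of -0.16 and values from -1.20 to 0.23. With the length trend removed, 9 of 18 were below 0 and their median was -0.02. Of the 18, 3 were lower at an unadjusted p under 0.05, beside 5.17% of all tested genes. Kdm4b removes methyl groups from H3K9 (chromosome 17, 56326062 to 56402870) and was at 12.6 and 13.7 CPM (controls) and at 7.68 and 3.83 CPM (labelled knockout) (log2 fold change -1.20, SE 0.43, adjusted p = 0.455 in edgeR). Both libraries labelled knockout were below the controls, and library 4 was the lowest. Without library 3 the log2 fold change was -1.81. Kdm6b encodes the inducible H3K27 demethylase JMJD3 (chromosome 11, 69398508 to 69413675) and was at 101.6 and 112.4 CPM (controls) and at 79.2 and 77.2 CPM (labelled knockout) (log2 fold change -0.45, SE 0.15, adjusted p = 0.423 in edgeR). Its replicates lay closer to each other than the groups did. An antisense gene, Kdm6bos, covers 4.11% of its exonic bases and had at most 9 counts in any library. Kdm3b, an H3K9 demethylase gene, was at 44.0 and 43.6 beside 31.3 and 25.7 CPM (log2 fold change -0.62, SE 0.22, adjusted p = 0.440 in edgeR), and 24.6% of its exonic bases are shared with a gene on the opposite strand. Kdm1a, the H3K4 demethylase LSD1, was at 16.1 and 16.0 beside 8.89 and 14.55 CPM (log2 fold change -0.45, SE 0.34), with library 3 the lowest.

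The KDM5 enzymes erase H3K4 trimethylation, and 3 of the 4 had values at or just above 0. Kdm5a was at 200.9 and 234.1 CPM (controls) and at 271.6 and 213.3 CPM (labelled knockout) (log2 fold change 0.16, SE 0.17). Library 3 was the highest for Kdm5a and also for Kdm6a, the X-linked H3K27 demethylase UTX, which was at 23.8 and 21.0 beside 32.2 and 20.2 CPM (log2 fold change 0.23, SE 0.31). The X-linked Kdm5c was at 58.9 and 68.8 beside 67.7 and 64.5 CPM (log2 fold change 0.05, SE 0.18, 95% interval -0.37 to 0.48). Its Y-linked partner Kdm5d was at 16.8 and 17.6 beside 17.8 and 16.95 CPM (log2 fold change 0.01, SE 0.26, 95% interval -0.62 to 0.65). Reads that match both partners may have been dropped or split, so both values are uncertain. Of further Y-linked genes, Ddx3y was at 145.3 and 134.7 beside 104.9 and 90.1 CPM, Uty at 23.4 and 36.1 beside 24.5 and 22.9 CPM and Eif2s3y at 75.8 and 88.6 beside 82.0 and 70.7 CPM, while Xist, the RNA of the inactive X chromosome, had 0 counts in all 4 libraries. Kdm5b was the KDM5 gene below 0, with a log2 fold change of -0.41 (SE 0.21). Kdm8, a JmjC-domain hydroxylase, was at 13.8 and 11.05 beside 11.5 and 17.5 CPM (log2 fold change 0.22, SE 0.34), with overlapping groups.

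Among the ARID proteins, 7 of 9 tested were below 0, with a median log2 fold change of -0.28. These were 6 of 9 and -0.15 with the length trend removed. Arid1a encodes the DNA-binding subunit of the canonical SWI/SNF complex (chromosome 4, 133679008 to 133756769). It was at 278.5 and 255.6 CPM (controls) and at 177.0 and 186.0 CPM (labelled knockout). Replicates differed little, with means of 267.1 ± 16.2 and 181.5 ± 6.345 CPM (SD, n = 2 each). This gave a log2 fold change of -0.56 (SE 0.14, 95% interval -0.89 to -0.23), with an adjusted p of 0.303 in edgeR and 0.0802 in DESeq2. Arid1b, the alternative to Arid1a in that complex, had a log2 fold change of -0.51 (SE 0.23) and Arid2, a subunit of the PBAF form, one of -0.65 (SE 0.28). Arid4a, a subunit of the SIN3 corepressor complex (chromosome 12, 71015990 to 71098592), was at 89.9 and 93.2 beside 71.9 and 61.5 CPM (log2 fold change -0.46, SE 0.17, adjusted p = 0.465 in edgeR). Arid5a, known for stabilising cytokine messenger RNAs (chromosome 1, 36307733 to 36324029), was at 139.5 and 157.4 CPM (controls) and at 180.6 and 204.1 CPM (labelled knockout) (log2 fold change 0.37, SE 0.15, adjusted p = 0.506 in edgeR). Both libraries labelled knockout stood above both controls. Arid5b, its relative and a partner of the demethylase PHF2, was at 11.6 and 10.7 beside 7.655 and 13.2 CPM (log2 fold change -0.10, SE 0.38), with overlapping groups.

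CHD remodellers had a median log2 fold change of -0.16 and values from -0.70 to 0.15, with 7 of 10 below 0. Of the 10, 1 gene was lower at an unadjusted p under 0.05, beside 5.17% of all tested genes. With the length trend removed the median was 0.01 and 5 of 10 were below 0. The 1 gene, Chd1l, encodes a remodeller recruited to DNA breaks by poly-ADP-ribose (chromosome 3, 97560742 to 97610203) and was at 47.0 and 36.2 CPM (controls) and at 27.7 and 23.5 CPM (labelled knockout) (log2 fold change -0.70, SE 0.24, adjusted p = 0.436 in edgeR). Its groups did not overlap. Chd4, the ATPase of the NuRD complex, was at 91.5 and 84.6 beside 84.3 and 84.5 CPM (log2 fold change -0.06, SE 0.15, 95% interval -0.43 to 0.31), a difference smaller than the spread of the controls. Chd7, a remodeller of enhancers, was at 43.5 and 42.2 beside 34.0 and 37.65 CPM (log2 fold change -0.26, SE 0.20). Chd5 rested on 155 and 57 counts (controls) and on 10 and 210 (labelled knockout), so its direction is not known.

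Histone deacetylases had 7 of 10 tested below 0, a median log2 fold change of -0.25 and values from -0.43 to 0.34. Removing the length trend left 7 below 0, with a median of -0.18. Hdac1 encodes the class I deacetylase of the NuRD, SIN3 and CoREST complexes (chromosome 4, 129516104 to 129542713). It was at 167.6 and 182.5 CPM (controls) and at 217.0 and 226.2 CPM (labelled knockout), with no overlap and the controls lower. Its log2 fold change was 0.34 (SE 0.14, 95% interval 0.01 to 0.67, edgeR adjusted p = 0.505). Hdac2, its partner in the same complexes, was at 9.59 and 9.95 beside 6.26 and 10.5 CPM (log2 fold change -0.22, SE 0.38), with library 3 alone low. Hdac3, the deacetylase of the NCoR and SMRT corepressors, was at 46.1 and 51.6 beside 38.4 and 39.1 CPM (log2 fold change -0.33, SE 0.19, adjusted p = 0.669 in edgeR). Hdac7, a class IIa enzyme of lymphocytes, was at 34.4 and 55.6 beside 30.8 and 49.3 CPM (log2 fold change -0.17, SE 0.33), so the replicates of a group differed more than the groups. Hdac4, another class IIa gene, had a log2 fold change of -0.43 (SE 0.18), and 22.4% of its exonic bases are shared with a gene on the opposite strand. Hdac9 was not tested, with 53 counts in library 4 and 0 in the others.

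DNA methylation enzymes were below 0 in all 6 tested, with a median log2 fold change of -0.46, and in 5 of 6 with a median of -0.22 once the length trend was removed. Dnmt3b encodes a de novo DNA methyltransferase (chromosome 2, 153649450 to 153687730). It was at 12.6 and 18.7 CPM (controls) and at 6.56 and 4.75 CPM (labelled knockout), from 729 and 882 against 282 and 246 counts. The groups did not overlap, and the log2 fold change was -1.46 (SE 0.38, 95% interval -2.37 to -0.56). The adjusted p was 0.323 in edgeR and 0.0117 in DESeq2. Dnmt3c, a rodent copy of Dnmt3b, had at most 8 counts in a library and was not tested, and reads matching both copies may be missing from either. Dnmt3a, the other de novo enzyme, was at 33.1 and 58.9 beside 34.2 and 28.1 CPM (log2 fold change -0.56, SE 0.32, adjusted p = 0.654 in edgeR), with control library 2 alone standing high and a log2 fold change of -0.088 without it. Tet2, a TET enzyme often mutated in blood cancers, was at 42.7 and 62.0 beside 46.6 and 28.25 CPM (log2 fold change -0.48, SE 0.31), with control library 2 the highest and library 4 the lowest. Tet3 was at 16.2 and 16.45 beside 11.2 and 15.6 CPM (log2 fold change -0.29, SE 0.30), with library 3 alone low. Dnmt1, which copies methylation at replication, was at 141.0 and 159.2 beside 148.7 and 132.5 CPM (log2 fold change -0.09, SE 0.15, 95% interval -0.46 to 0.27), with overlapping groups. Dnmt3l, the inactive cofactor of germ cells, had 0 counts in all 4 libraries.

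**Figure D2:**
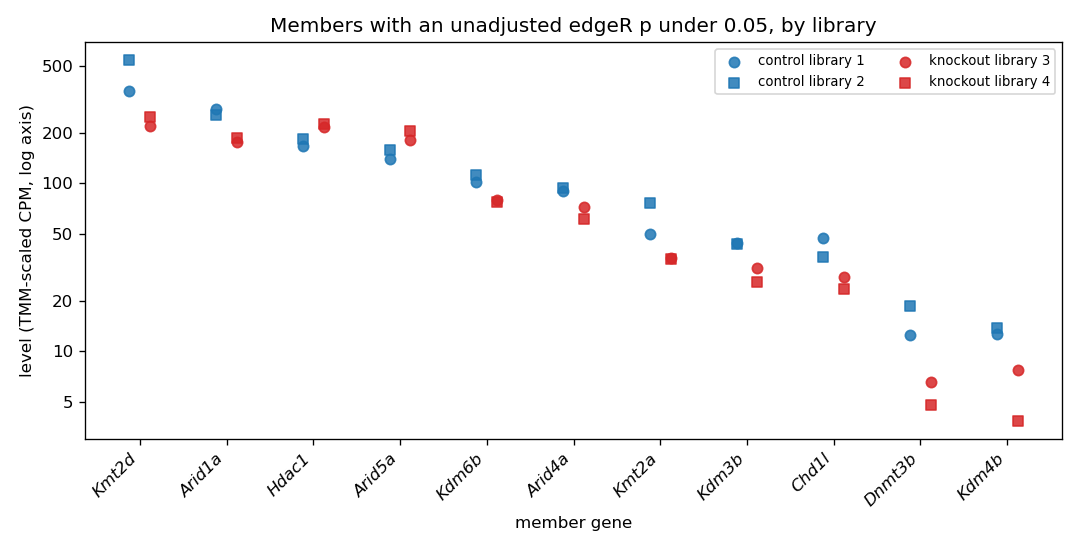
Level of the 11 members with an unadjusted edgeR p under 0.05 in each library, as TMM-scaled CPM on a log axis, for controls (blue) and the libraries labelled knockout (red). In 9 genes both red points lie below both blue points, and in Hdac1 and Arid5a both lie above.

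The promoters of Kmt2d, Dnmt3b and Arid1a are shown, as the members with the smallest edgeR p, by the 250 bases before the RefSeq gene start (GRCm38.p6, the assembly of mm10). Capitals mark the GC box GGGCGG on either strand, the letters that SP family factors bind. The Kmt2d window (chr15:98871206-98871455, minus strand) held 26 CpG dinucleotides and 4 GC boxes. The Dnmt3b window (chr2:153649199-153649448, plus strand) held 21 and 3, and the Arid1a window (chr4:133756770-133757019, minus strand, at the RefSeq start nearest to the annotated gene start) 18 and 1.
Kmt2d: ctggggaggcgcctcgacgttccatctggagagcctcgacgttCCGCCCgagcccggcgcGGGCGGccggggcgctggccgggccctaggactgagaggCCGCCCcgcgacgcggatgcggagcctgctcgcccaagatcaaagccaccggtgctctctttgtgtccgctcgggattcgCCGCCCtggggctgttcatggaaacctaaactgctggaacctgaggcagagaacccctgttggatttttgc
Dnmt3b: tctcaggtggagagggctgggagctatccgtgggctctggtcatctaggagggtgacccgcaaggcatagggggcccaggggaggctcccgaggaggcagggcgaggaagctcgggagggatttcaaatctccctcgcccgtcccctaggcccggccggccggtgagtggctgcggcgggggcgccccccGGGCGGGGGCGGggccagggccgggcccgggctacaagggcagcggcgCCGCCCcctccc
Arid1a: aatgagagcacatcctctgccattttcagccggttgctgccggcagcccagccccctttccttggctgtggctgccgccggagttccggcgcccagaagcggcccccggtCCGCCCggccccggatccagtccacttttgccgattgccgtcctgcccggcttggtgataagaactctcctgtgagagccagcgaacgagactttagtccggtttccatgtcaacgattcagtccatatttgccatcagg
Of 56 members with an entry, 36 (64.3%) held a GC box in this window, as did 32.9% of all 27025 promoters. The 2 sets are unlike, since all promoters were not filtered for protein-coding or tested genes. For a gene with several entries, members took the one nearest the annotated start and all promoters the first listed. The inverted CCAAT box, ATTGG on either strand, was in 42.9% of members and 34.5% of all. The E box CACGTG was in 1.79% and 6.05%, and the CRE TGACGTCA in 0 of 56 members and 1.62% of all. The median number of CpG dinucleotides was 17 in members and 6 in all promoters. These are matches of letters in a window and describe no binding.

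Levels were compared between genes as CPM per kilobase of annotated exons. On that scale Hdac1 stood above all other members in each library, at 48.7 to 65.7 over the 4 libraries. Kmt2e followed at 23.3 to 28.4, above Dnmt1 at 18.0 to 21.6 without overlap, while Arid1a at 15.4 to 24.3 and Kmt2d at 11.1 to 27.1 overlapped both. Kdm5a was at 14.2 to 19.2, within reach of Dnmt1, Arid1a and Kmt2d. The next genes by mean, Arid4a, Arid5a and Kdm6b, overlapped Kdm5a in range as well. The highest mean belonged to Chd4 among CHD remodellers, at 10.5 to 11.4, and to Kmt5c among the other SET-domain methyltransferases, at 4.27 to 8.48. In library 3, however, Kmt5c was at 4.27, below Setdb2 at 5.53 and Setd3 at 4.76. Tet1 (0.149 to 0.2465) and Chd5 (0.024 to 0.4235) had the lowest means of the tested members. Arid3c, untested, had at most 1 count in a library.

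**Figure D3:**
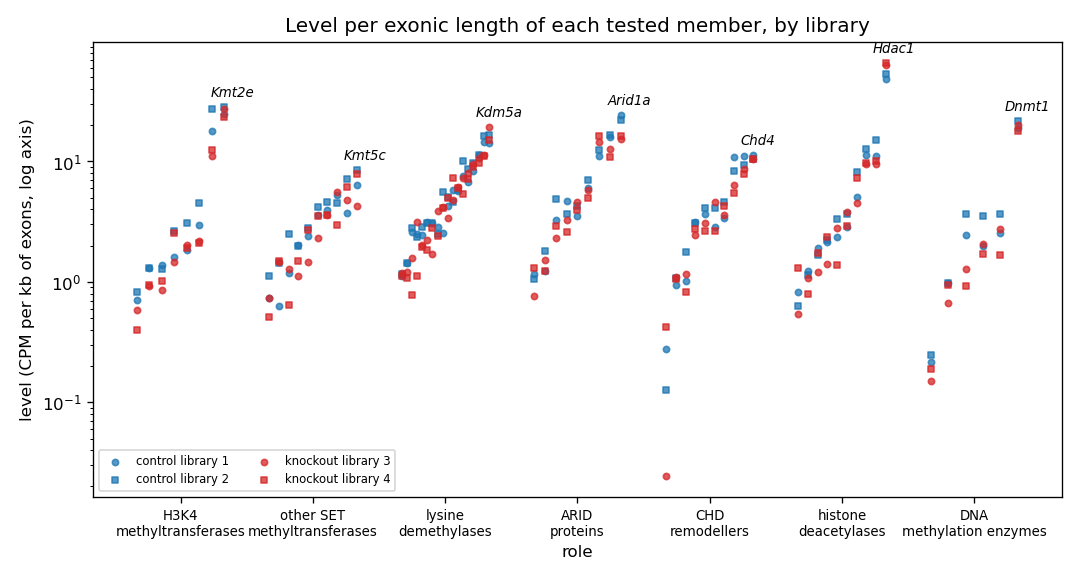
Level of each tested member in each library as CPM per kilobase of exons (log axis), ordered by mean within its role, with the member of highest mean in each role named. Hdac1 stands above the others at 48.7 to 65.7, and Chd5 has the widest spread on this axis.

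Genes of these families have a long annotated exonic length, and the median log2 fold change over all genes differed between length classes. The median exonic length was 8721 bases in tested members and 3622 bases in all tested genes, and 46 of 71 members fell in the longest class, of 6772 bases or more. The median log2 fold change in that class was -0.13 over all genes and -0.32 in members. In the shorter classes, from the shortest up, the median over all genes was -0.003, 0.10 (1453 to 2906 bases), 0.03 and -0.04. It thus did not fall steadily with length. With a trend on length removed from each library, 46 of 71 members (64.8%) were below 0, where 47.4% of all tested genes were. The medians were then -0.17 in members and 0.03 over all. At an unadjusted p under 0.05, 6 members were lower (8.45%, beside 4.38% of all) and 3 higher (4.23%, beside 5.01%). In that fit the log2 fold change was -0.64 for Kmt2d, -1.39 for Dnmt3b and -0.38 for Arid1a. On the higher side stood Arid5a at 0.58, Kdm5a at 0.38 and Hdac1 at 0.34.

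**Figure D4:**
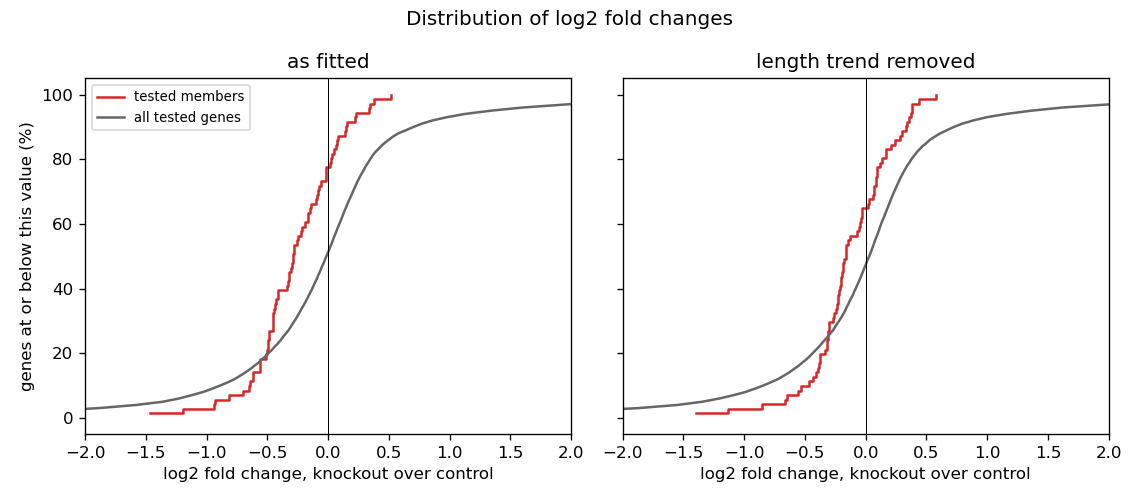
Cumulative share of genes (percent) at or below each log2 fold change (libraries labelled knockout over control) for the 71 tested members (red) and all 14863 tested genes (grey), as fitted (left) and with the length trend removed (right). At 0 the members' curve stands at 77.5% and 64.8%, that of all genes at 51.3% and 47.4%.

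Chromatin genes outside these families, in 9 lists of partners and related enzymes, were also below 0 more often than above. Of 152 listed genes 147 were tested, 104 of them below 0, where 51.3% of all tested genes were, with a median log2 fold change of -0.19. With the length trend removed, 90 were below 0 and the median was -0.09. At an adjusted p under 0.05 edgeR called 0 of these genes, with 17 lower and 1 higher unadjusted, beside 5.17% lower and 4.48% higher over all tested genes. In the fit without the length trend 12 were lower and 4 higher unadjusted, beside 4.38% and 5.01% of all. DESeq2 called 4 lower (Crebbp, Hcfc1, Jmjd1c and Sirt6) and 0 higher, where it called 203 (1.34%) of all its tested genes lower and 278 higher. Of 13 histone acetyltransferases 4 were lower unadjusted, beside the 5.17% of all genes, with a median of -0.28. With the length trend removed these were 3 and -0.15. Crebbp, the coactivator acetyltransferase CBP, was at 459.1 and 533.5 CPM (controls) and at 323.2 and 313.0 CPM (labelled knockout) (log2 fold change -0.64, SE 0.14, adjusted p = 0.277 in edgeR and 0.0279 in DESeq2). Kat2b, the acetyltransferase PCAF, was at 15.1 and 11.8 beside 4.93 and 6.98 CPM (log2 fold change -1.17, SE 0.36). In both genes the groups did not overlap.

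Histone methyltransferases outside the rule had a median of -0.34 (-0.25 without the length trend) over 16 tested. Nsd1, an H3K36 methyltransferase gene, was the 1 of these 16 lower unadjusted, beside 5.17% of all tested genes. It was at 130.3 and 144.0 beside 82.4 and 93.4 CPM (log2 fold change -0.64, SE 0.16, adjusted p = 0.305 in edgeR), and Smyd5 had a log2 fold change of -0.87 (SE 0.36). Of 8 tested relatives of the demethylases (median -0.26, and -0.14 without the length trend) 2 were lower unadjusted, beside the same 5.17% of all tested genes. These were Jmjd1c at 66.4 and 70.3 beside 43.6 and 34.65 CPM (log2 fold change -0.80, SE 0.20) and Jmjd6 at 74.3 and 81.0 beside 46.2 and 50.75 CPM (log2 fold change -0.68, SE 0.17). The 12 subunits of KMT2 and SET1 complexes had a median of -0.02 (0.01 without the length trend). Among them Hcfc1, which links these complexes to transcription factors, was at 74.1 and 92.7 beside 40.65 and 50.15 CPM (log2 fold change -0.88, SE 0.21, adjusted p = 0.290 in edgeR and 0.0216 in DESeq2), and Cxxc1, which guides SET1 to CpG islands, had a log2 fold change of 0.34 (SE 0.17).

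SWI/SNF subunits had a median of -0.04 (-0.03 without the length trend) over 22 tested, with 3 lower unadjusted. For this count and those of the lists below, the share over all tested genes was 5.17% lower and 4.48% higher. Among the 3 were Smarcd1 at 14.8 and 25.9 beside 6.86 and 10.2 CPM (log2 fold change -1.25, SE 0.40) and Brd7 at 123.8 and 195.8 beside 95.1 and 106.4 CPM (log2 fold change -0.67, SE 0.24). Of 25 corepressor and sirtuin genes (median -0.20, and -0.09 without the length trend) 2 were lower, the deacetylase gene Sirt6 at 106.0 and 130.2 beside 60.15 and 76.3 CPM (log2 fold change -0.79, SE 0.20) and the NuRD subunit gene Mbd3 (log2 fold change -0.93, SE 0.34). The 27 Polycomb genes had a median of -0.14 (-0.07 without the length trend). There Cbx7 was lower (log2 fold change -0.90, SE 0.30) and Cbx8 higher (log2 fold change 0.73, SE 0.30), both unadjusted, and both encode alternative chromodomain subunits of one complex. Further remodellers had a median of -0.22 (-0.02 without the length trend) over 15 tested, with 3 lower, among them Smarcad1 (log2 fold change -1.12, SE 0.34) and Srcap (log2 fold change -0.69, SE 0.24). Partners of DNA methylation had a median of -0.15 (-0.09 without the length trend) over 9, and the smallest p belonged to Mbd4 (log2 fold change -0.54, SE 0.38) and Hells (log2 fold change -0.39, SE 0.35), neither under 0.05 unadjusted.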

How the data were processed

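Per the labels' protocols, ILC1 RNA was turned into low-input SMARTer libraries for a NovaSeq run. The authors deposited raw counts of reads per gene for 4 libraries. The submitters' processing notes name mm10, STAR, featureCounts of Subread, DESeq2 and bcl2fastq. How reads were assigned to strands and to several matches, and the annotation, are not given in the sources used here, so overlapping genes and near-identical copies are uncertain.

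Of 40757 lines, 276 repeats with identical counts were dropped. Replicates differed beyond counting noise (chi-square per degree of freedom 90.9 in controls and 83.7 in the libraries labelled knockout). Separate animals are not stated, so p-values measure the spread between these libraries, which may be technical. The 14863 genes passing edgeR's filterByExpr, 71 members among them, were scaled by TMM and tested two-sided with edgeR 4.0.16 in R 4.3.3 (robust quasi-likelihood, genotype as the only term, 2 residual degrees of freedom), with Benjamini-Hochberg adjustment over all tested genes. Lengths and positions came from GENCODE for GRCm38 and promoters from RefSeq. A length is the union of a gene's annotated exons over all its transcripts, so it can exceed that of the transcript expressed. The test was tried on simulated data. limma 3.58.1 and DESeq2 1.42.0, other scalings and filters, thinning, removal of a length trend, a block on the column numbers and leaving out each library were alternatives. The members, lists, tests and naming rule were chosen with earlier results of these data known. Members named were 22 anchors, those with an unadjusted p under 0.05, the 4 highest and 4 lowest log2 fold changes at 10 CPM or more, and the highest and lowest level per length of each role, and of each other list the 2 genes with the smallest p. Members named outside this rule, such as Hdac2, Hdac4, Arid1b, Arid2, Kdm5b, Tet1 and Setd6, and the 3 promoters were chosen after their values were seen.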

Additional observations from a re-analysis of the deposited data

How the results depend on the processing

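GEO's sample titles number the libraries 1 to 4, while the count columns number them 1 and 2 in each group, and the labels tie these numbers to no shared animal or batch. A replicate block on the column numbers was chosen after seeing the data and left 1 residual degree of freedom in edgeR. It called 0 genes in all and 0 members, with 12 members lower and 2 higher unadjusted, and put Chd5 at -0.78. The unadjusted share over all genes was not counted for that fit. Same-numbered libraries' deviations correlated at 0.119 across tested genes. The members' median log2 fold change was below 0 in all 17 alternatives. It was -0.17 with the length trend removed and ran from -0.39 to -0.19 with 1 library left out. Against 23 genes called in all, 563 were called with no low-count filter, 49 with the stricter one, 481 by DESeq2, 3 after thinning, 1 with the length trend removed and 0 to 17 with 1 library left out. Members called were 3 with no filter (Kmt2d, Dnmt3b and Kmt2a, all lower), 2 by DESeq2 and 0 in the other alternatives. Members lower unadjusted were 18 with no filter, 14 with the stricter one and 3 to 11 with 1 library left out. Of the other chromatin lists, 9 genes were called with no filter and 4 by DESeq2. Of 578 values for 34 named members, 26 had the other sign, in 13 genes. Kdm5d was at -0.027 with plain library sizes, -0.0053 with no filter, -0.015 with the stricter filter and -0.015 after thinning, and Chd5 at -0.75 by limma-voom. With the length trend removed Dnmt1 was at 0.027, Arid5b at 0.066, Kmt2e at 0.097 and Chd4 at 0.069. With 1 library left out, values ran from -0.57 to 0.22 for Arid5b, -3.08 to 1.03 for Chd5, -0.57 to 0.22 for Hdac7, -0.049 to 0.30 for Kdm5a, -0.058 to 0.17 for Kdm5c, -0.044 to 0.047 for Kdm5d, -0.18 to 0.50 for Kdm6a, -0.14 to 0.47 for Kdm8, -0.22 to 0.022 for Kmt2e, -0.84 to 0.049 for Kmt5a, -0.82 to 0.065 for Kmt5c. The cause was not tested.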

Other observations

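The 2 controls were not level for these genes. Control library 2 exceeded control library 1 in 50 of 71 tested members, with a median log2 difference of 0.18, where the median over all tested genes was 0.04. Library 4 exceeded library 3 in 31 of 71, with a median difference of -0.04. Set against control library 1, the members' medians were -0.18 in library 3 and -0.15 in library 4, about the size of the difference between the controls. Set against control library 2, they were -0.42 and -0.33.

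The names of these families also fit 5 genes that are not protein coding. Kdm4dl, an unprocessed pseudogene, had 22 and 7 counts (controls) and 10 and 17 (labelled knockout). The antisense genes Dnmt3aos, Dnmt3bos and Kdm6bos and the pseudogene Dnmt3l-ps1 had at most 10 counts in a library.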
